A study of Homo sapiens with 4 samples.

Results

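The 9 genes described here encode secreted and membrane proteases, which act in extracellular matrix breakdown or on cell surface proteins, and metalloproteinase inhibitors. They are the matrix metalloproteinases *MMP2*, *MMP14* and *MMP15*, the tissue inhibitors of metalloproteinases *TIMP1*, *TIMP2* and *TIMP3*, the plasminogen activators *PLAU* and *PLAT*, and the disintegrin metalloproteinase *ADAM9*. They were chosen by name and matched to Ensembl gene IDs through their symbols, 9 of the 61541 genes in the table. All 9 passed the filter on low counts, which kept 16863 genes. The RNA came from MHCC97H, an established human hepatocellular carcinoma line, in 2 libraries of control cells (shCon) and 2 libraries of UBXN1-knockdown cells (shUBXN1). Both groups carry an shRNA vector, which by the methods is pLKO.1 delivered by lentivirus, and the methods name shRFP as the control where the labels name shCon. The hairpin used for the sequenced cells, and whether the infected cells were pooled or cloned, are not given in the sources used here. No label says that the 2 libraries of a group came from separate cultures, so the p-values measure only the spread between these libraries, which may be technical.

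Matrix metalloproteinases are zinc enzymes made as inactive precursors, and TIMPs bind their active sites. *MMP14* encodes a membrane-anchored enzyme that activates pro-MMP2 at the cell surface in a complex with TIMP2, so that TIMP2 is both an inhibitor and a part of that activation. Urokinase (*PLAU*) and tissue-type plasminogen activator (*PLAT*) cut plasminogen, which the liver secretes, into plasmin, a protease that dissolves fibrin and can act on matrix and on other protease precursors. Cleavage of matrix by metalloproteinases and plasmin is a step in the invasion of liver and other carcinomas.

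The libraries held 23373700 to 27380508 counts, of which mitochondrial genes took 5.28% and 5.59% in shCon and 7.43% and 8.27% in shUBXN1. *UBXN1*, the targeted gene, was at 67.1 and 77.3 CPM in shCon and at 16.8 and 18.5 CPM in shUBXN1, where CPM is the count scaled to a fixed library total after TMM normalization. Its log2 fold change was -2.03 (standard error 0.0963; edgeR, adjusted p = 9.98e-10). Among markers of hepatocytes and of this cancer type, *KRT8* and *KRT18* were abundant, with 57649 to 89425 and 22297 to 29196 counts, whereas *ALB* was at 479 and 403 counts in shCon and 104 and 112 in shUBXN1. The defining leukocyte genes *PTPRC* and *CD3E* had at most 4 counts in any library, and the fibroblast genes *ACTA2* and *PDGFRB* at most 7, whereas *COL1A1* had 10 and 4 counts in shCon and 58 and 59 in shUBXN1 (log2 fold change 3.11; edgeR, adjusted p = 5.83e-05). The summed level of 7 fibroblast markers, most of it from *LUM*, was 33.3 to 33.8 CPM in shCon and 17.4 to 20.0 CPM in shUBXN1, and that of 5 endothelial markers, which *KDR* and *PECAM1* make up for the most part, was 48.5 to 50.1 and 92.7 to 99.95 CPM. For 7 leukocyte and macrophage markers, mainly *CD68*, the sums were 84.7 to 90.7 and 71.9 to 74.3 CPM. The part of other cell types or of the mitochondrial share in the results was not tested, and in bulk RNA a change in how many cells express a gene cannot be told apart from a change per cell.

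Both plasminogen activator genes and *TIMP2*, *MMP14*, *ADAM9* and *TIMP1* were higher in shUBXN1, though *TIMP1* was near 0 (-0.046 on the log2 scale) and not called after a correction for GC content, and *MMP2* was lower. At a Benjamini-Hochberg adjusted p under 0.05 in edgeR's quasi-likelihood test, 6 of the 9 members were called higher, where 28.0% of all genes tested were, and 1 was called lower, where 28.2% of all genes were. *MMP15* and *TIMP3* did not pass. With the criteria that the methods state, a change of at least 2-fold either way with p under 0.05 before adjustment, *PLAU* and *PLAT* were called higher and *MMP2* lower, against 11.8% and 6.09% of all genes tested. The 2 groups of libraries did not overlap for 7 of the 9 members, and such separation was seen for 78.0% of all genes tested, so it marks nothing about the members. The median log2 fold change of the 9 was 0.42, against 0.016 over all genes tested. The members were chosen with earlier results of these data known, so these counts and medians only describe them. Across all genes, 66.0% of those called at a fold change of 2 were higher in shUBXN1, a share that was 53.7% after GC correction, in which a smooth trend of expression on transcript GC content was taken out of every library.

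**Figure D1:**
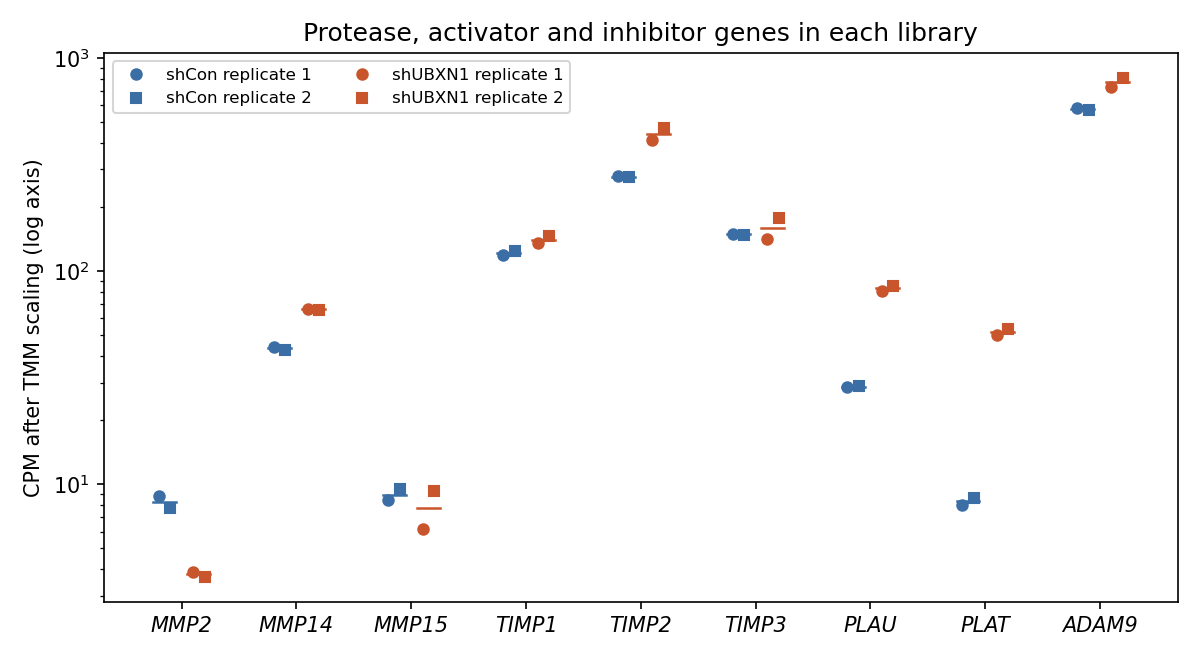
Level of each member in the 4 libraries, in CPM after TMM scaling on a log axis. Points are libraries and short bars are group means (n = 2). *PLAT* and *PLAU* stand far apart between the groups, from 8.33 to 51.9 and from 28.7 to 82.8 CPM on average, whereas the points of *MMP15* and *TIMP3* overlap.

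The plasminogen activators showed the largest changes among the members. *PLAT* (ENSG00000104368, minus strand of chromosome 8, 42174718 to 42207709 in GRCh38) was at 8.03 and 8.64 CPM in shCon and at 50.1 and 53.6 CPM in shUBXN1, from 203 to 1255 counts. Every shUBXN1 value lay far above every shCon value. The rise was 6.23-fold (log2 fold change 2.64, standard error 0.101; edgeR, adjusted p = 1.50e-10), and 2.03% of all genes tested had a larger one. *PLAU* (ENSG00000122861, plus strand of chromosome 10, 73909177 to 73917496) was at 28.4 and 29.0 CPM in shCon and at 80.3 and 85.3 CPM in shUBXN1. Here too the groups were well separated, with a spread within each group much smaller than the distance between them. The rise was 2.89-fold (log2 fold change 1.53, standard error 0.0791; edgeR, adjusted p = 2.19e-09), and 6.82% of all genes tested rose more. An antisense gene, *C10orf55*, covers 31.0% of the annotated exon bases of *PLAU*, and since it is not stated whether strand was used in counting, their reads cannot be told apart there. *C10orf55* itself was given only 7 to 16 counts, against 681 to 1998 for *PLAU*.

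On the TPM scale, which divides by gene length and so allows levels of different genes to be set side by side, the shCon level of *PLAU* was 24.6 ± 0.175 (SD, n = 2) and that of *PLAT* 6.21 ± 0.195 (SD, n = 2). In shUBXN1 they were at 73.8 ± 0.726 and 40.3 ± 0.216 TPM (SD, n = 2). *PLAU* therefore stayed the more abundant of the pair in every library, but the ratio of *PLAU* to *PLAT* went from 4.07 and 3.85 in the shCon libraries to 1.84 and 1.83 in the shUBXN1 libraries. The summed level of both activators was 30.8 TPM in each shCon library and 115 and 113 TPM in shUBXN1. The genes most like *PLAT* over the 4 libraries, by Euclidean distance between mean-centred log2 CPM values, were *FLNC*, which encodes the actin crosslinker filamin C (distance 0.105), the gene ENSG00000287707 (0.109) and the acetylcholine receptor subunit gene *CHRNB1* (0.109). For *PLAU* they were *PDGFRL* (0.0336), *CHKA-DT* (0.0445) and *DUX4L50* (0.0471). With 4 libraries such a distance mostly repeats the difference between the groups, and *PDGFRL*, *DUX4L50* and ENSG00000287707 were below 2 CPM in every library.

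Transcripts of the substrate of the activators were close to undetected in these cells, and its protein was not measured here. *PLG*, the plasminogen gene, had 0 counts in both shCon libraries and 6 and 1 in shUBXN1, and did not pass the filter; it is named after its values were seen. Of 16 other genes of the plasminogen system, 9 passed the filter, of which 4 were called higher and 0 lower by edgeR. Of all genes tested, 28.0% were called higher and 28.2% lower. The median log2 fold change of the 9 was 0.04. Before adjustment 0 of the 9 were lower with p under 0.05. DESeq2 called 2 of them lower and limma 0, and after GC correction edgeR called 1. The urokinase receptor gene *PLAUR* rose from 13.5 and 16.2 CPM to 21.3 and 22.9 CPM (log2 fold change 0.58, standard error 0.118; edgeR, adjusted p = 0.000801), and by 0.37 on the log2 scale after GC correction. The plasmin inhibitor gene *SERPINF2* and the protein C inhibitor gene *SERPINA5* rose by 1.60 and 2.33 on the log2 scale (edgeR, adjusted p = 0.000575 and 0.000139) from low levels, with 10 to 31 counts in shCon, and in limma on log2(TPM + 1) *SERPINA5* was at 1.37. *ANXA2* and *S100A10*, which encode a plasminogen-binding complex of the cell surface, had log2 fold changes of -0.011 and -0.18 (edgeR, adjusted p = 0.931 and 0.120), and are named after their values were seen.

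The 3 metalloproteinase genes differed in direction. *MMP2* (ENSG00000087245, plus strand of chromosome 16, 55389700 to 55506691), which encodes gelatinase A, was at 8.78 and 7.71 CPM in shCon and at 3.88 and 3.67 CPM in shUBXN1. Both shUBXN1 values, from 96 and 86 counts, were below both shCon values, from 234 and 181 counts. The fall was 2.18-fold (log2 fold change -1.13, standard error 0.187; edgeR, adjusted p = 0.000142), and 4.90% of all genes tested fell more. In limma on log2(TPM + 1), a scale that shrinks changes of low genes, the log2 fold change was -0.81. *MMP14* (ENSG00000157227, plus strand of chromosome 14, 22836560 to 22849041), the activator of pro-MMP2, was at 44.1 and 42.7 CPM in shCon and at 66.4 and 65.8 CPM in shUBXN1. Values within a group were close and the groups were apart. *MMP14* rose 1.52-fold (log2 fold change 0.61, standard error 0.0755; edgeR, adjusted p = 9.74e-06), and after GC correction the log2 fold change was 0.33, still past the threshold.

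*MMP15* (ENSG00000102996, plus strand of chromosome 16, 58025754 to 58046901) encodes another membrane-anchored enzyme of this family, and its shUBXN1 libraries did not agree. It was at 8.44 and 9.45 CPM in shCon and at 6.18 and 9.27 CPM in shUBXN1, so that the groups overlapped. The log2 fold change was -0.21, with a 95% interval from -0.61 to 0.19 (edgeR, adjusted p = 0.357). Without the first shUBXN1 library it was 0.051, and without the second it was -0.55 and past the threshold (edgeR, adjusted p = 0.0135). After GC correction it was -0.69 (edgeR, adjusted p = 0.00551). *MMP15* transcripts had the highest GC content of the members, 65.5% in the longest transcript.

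In TPM, *MMP14* was the most abundant of the 3 metalloproteinases in both groups, with 23.5 ± 1.04 (shCon) and 37.3 ± 2.22 (shUBXN1; SD, n = 2). *MMP2* and *MMP15* were at 4.71 ± 0.532 and 4.41 ± 0.259 TPM (SD, n = 2) in shCon and did not differ beyond their spread, since their libraries overlapped. In shUBXN1 *MMP2* was at 2.25 ± 0.204 and *MMP15* at 3.95 ± 0.914 TPM (SD, n = 2), and *MMP2* was the lower in each of the 2 libraries.

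Stretches upstream of the annotated start are shown for members that rose (*PLAU*, *MMP14*) and members that did not pass the test (*MMP15*, *TIMP3*). They come from RefSeq's promoter windows on GRCh38.p14, run 5′ to 3′ on the plus strand, and end just before the first annotated exon of the gene in that window. Capitals mark the GC box GGGCGG on either strand, the element that Sp1 family factors bind. The *PLAU* stretch, chr10:73911004-73911103, lies in an intron of longer annotated transcripts. The others are chr14:22836460-22836559, chr16:58025654-58025753 and chr22:32801605-32801704.
PLAU: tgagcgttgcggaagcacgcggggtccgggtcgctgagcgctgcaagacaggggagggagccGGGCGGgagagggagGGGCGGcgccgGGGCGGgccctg
MMP14: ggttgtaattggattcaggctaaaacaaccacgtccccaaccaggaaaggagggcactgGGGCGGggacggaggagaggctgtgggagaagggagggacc
MMP15: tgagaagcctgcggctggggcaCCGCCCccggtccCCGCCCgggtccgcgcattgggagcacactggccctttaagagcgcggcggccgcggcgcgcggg
TIMP3: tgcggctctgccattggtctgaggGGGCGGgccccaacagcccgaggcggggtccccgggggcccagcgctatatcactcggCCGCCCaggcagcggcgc

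In the whole windows, 250 bases before to 50 bases after the start, GC boxes numbered 3 for this start of *PLAU* and 0 for its other start, 1 for *MMP14*, 2 for *TIMP1*, 5 for *MMP15* and 5 for *TIMP3*, and 45% of 35116 promoter windows of that length held at least 1. The element was thus found in windows of members that rose and of members that did not pass the test. The AP-1 motif TGANTCA, the TATA box TATAAA and the NF-κB consensus were in none of the windows of these 5 members, both starts of *PLAU* included, and in 7.7%, 11.5% and 5.9% of all windows. The CCAAT box, searched as CCAAT, was in those of *MMP14*, *MMP15*, *TIMP3* and the other start of *PLAU*, and in 34.6% of all windows. All motifs were searched on both strands. A match or its absence describes these letters in this window and nothing more. No window was used here for *MMP2*, *TIMP2*, *PLAT* and *ADAM9*.

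Of *TIMP1*, *TIMP2* and *TIMP3*, *TIMP2* had the largest log2 fold change. *TIMP2* (ENSG00000035862, minus strand of chromosome 17, 78852977 to 78925387) was at 280 and 275 CPM in shCon and at 413 and 470 CPM in shUBXN1. The shUBXN1 libraries differed from each other more than the shCon libraries did, and both were higher than either control. The rise was 1.59-fold (log2 fold change 0.67, standard error 0.0819; edgeR, adjusted p = 8.23e-06). An antisense lncRNA gene covers 5.91% of its exon bases and *CEP295NL*, on the same strand, 3.61%, with at most 105 and 27 counts against 6455 to 11010 for *TIMP2*.

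*TIMP1* (ENSG00000102265, plus strand of the X chromosome, 47582408 to 47586789) was at 118 and 124 CPM in shCon and at 135 and 146 CPM in shUBXN1. The groups did not overlap, and the rise was 1.16-fold (log2 fold change 0.21, standard error 0.0750; edgeR, adjusted p = 0.0263). This is the smallest change among the members called. The call was lost after GC correction, where the log2 fold change was -0.046 with a standard error of 0.0876 (edgeR, adjusted p = 0.680). It was also lost without the first or second shCon library or the second shUBXN1 library (edgeR, adjusted p = 0.212, 0.203 and 0.0761). *TIMP3* (ENSG00000100234, plus strand of chromosome 22, 32801705 to 32863041), whose product stays bound to the matrix, was at 150 and 147 CPM in shCon and at 141 and 178 CPM in shUBXN1. The shUBXN1 libraries lay on either side of the controls. The log2 fold change was 0.10, with a 95% interval from -0.099 to 0.30 (edgeR, adjusted p = 0.376), and it was 0.25 and past the threshold without the first shUBXN1 library but -0.085 without the second.

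**Figure D2:**
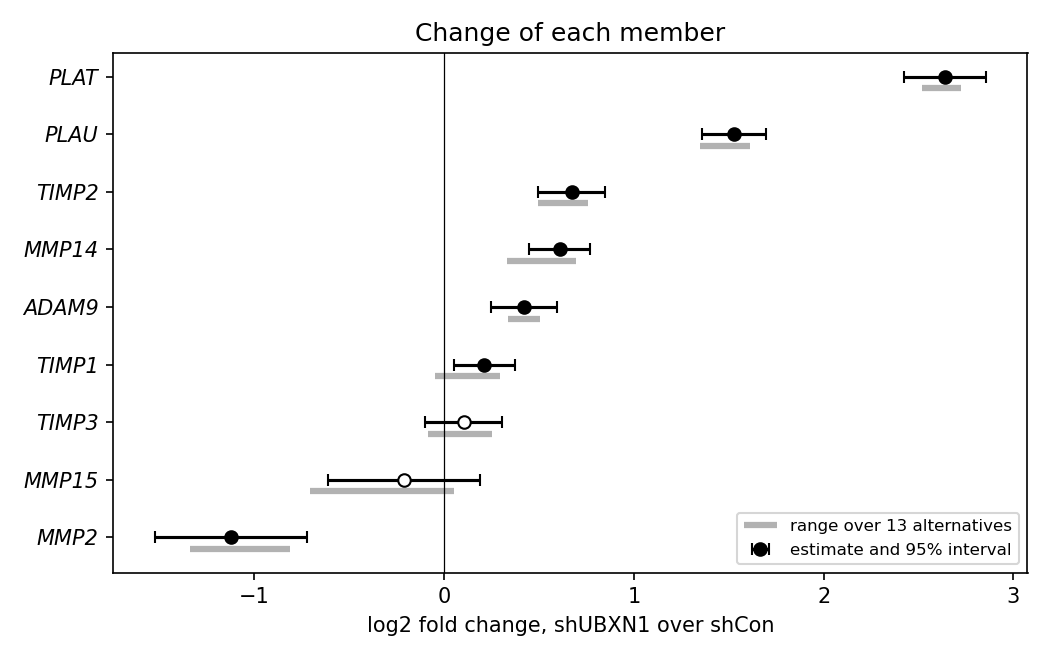
Log2 fold change of each member, shUBXN1 over shCon, with its 95% interval from edgeR (points, filled where the adjusted p was under 0.05) and the range over 13 alternative settings (grey bars). The ranges of *PLAT*, *PLAU*, *TIMP2*, *MMP14*, *ADAM9* and *MMP2* stay on one side of 0, whereas those of *TIMP1*, *TIMP3* and *MMP15* cross it.

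The order of the inhibitors was the same in every library, with *TIMP1* above *TIMP2* and *TIMP2* above *TIMP3* in TPM. The mean of *TIMP1* was 316 ± 3.76 TPM in shCon and 381 ± 1.48 TPM in shUBXN1 (SD, n = 2), which placed it among the most abundant genes: 2.17% of all genes tested had a higher mean TPM. *TIMP2* was at 152 ± 5.16 and 252 ± 9.96 TPM, and *TIMP3* at 64.8 ± 2.20 and 72.2 ± 7.80 TPM (SD, n = 2). *TIMP1* made up 58.5% and 60.1% of the summed TPM of the 3 inhibitors in shCon and 54.9% and 53.2% in shUBXN1.

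The proportion of inhibitor to metalloproteinase transcripts overlapped between the groups for the 3 metalloproteinase members, and was higher in shUBXN1 when all 23 metalloproteinase genes listed were summed. The summed TPM of *TIMP1*, *TIMP2* and *TIMP3* was 536 and 531 in shCon and 692 and 719 in shUBXN1, and that of *MMP2*, *MMP14* and *MMP15* was 33.6 and 31.7 in shCon and 44.6 and 42.5 in shUBXN1. The ratio of these sums was 16.0 and 16.7 in shCon and 15.5 and 16.9 in shUBXN1, so the groups overlapped. Over the 23 genes the summed TPM was 672 and 659 in shCon and 363 and 357 in shUBXN1, most of it from *MMP7*, at 601 and 591 against 295 and 289 TPM. The ratio of the 3 inhibitors to that sum was 0.797 and 0.805 in shCon and 1.90 and 2.02 in shUBXN1, so these groups did not overlap. The ratio of *TIMP2* to *MMP14* overlapped, at 6.43 and 6.53 against 6.30 and 7.25. That of *TIMP2* to *MMP2* did not overlap, at 30.7 and 34.3 against 102 and 123. These ratios describe transcripts and use the gene lengths given with the counts, and no test was run on them. Separation of the 2 groups was seen for 78.0% of all genes tested, so by itself it marks little about a ratio. Other inhibitor genes, such as *TIMP4* and *RECK*, were not part of the inhibitor sum.

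**Figure D3:**
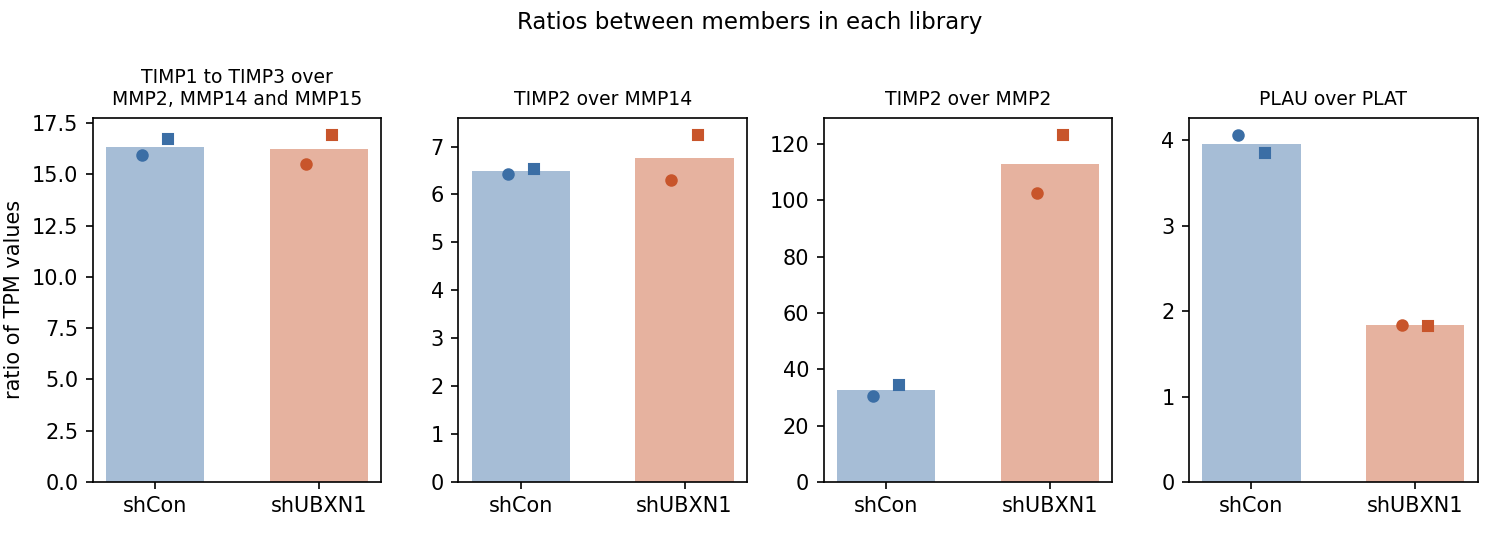
Ratios of TPM values between members in each library, with bars for group means (n = 2) and a circle and a square for replicates 1 and 2. The TIMP sum over the sum of *MMP2*, *MMP14* and *MMP15* and *TIMP2* over *MMP14* overlap between the groups, *TIMP2* over *MMP2* is higher in both shUBXN1 libraries, and *PLAU* over *PLAT* is lower in both.

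*ADAM9* (ENSG00000168615, plus strand of chromosome 8, 38996754 to 39105445) encodes a membrane protease that sheds cell surface proteins. It had the highest CPM of the members, 579 and 569 in shCon and 732 and 805 in shUBXN1, with no overlap between the groups. The rise was 1.34-fold (log2 fold change 0.42, standard error 0.0815; edgeR, adjusted p = 0.000530), and the log2 fold change of 0.39 without the second shCon library missed the threshold (edgeR, adjusted p = 0.0708). Per length *ADAM9* stood below *TIMP1*, with means of 259 ± 8.64 TPM in shCon and 361 ± 5.27 TPM in shUBXN1 (SD, n = 2).

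From the highest, the order of the members by mean TPM in shCon was *TIMP1*, *ADAM9*, *TIMP2*, *TIMP3*, *PLAU*, *MMP14*, *PLAT*, *MMP2* and *MMP15*. *PLAU* and *MMP14* were neighbours with close values (24.4 to 24.7 against 22.8 to 24.2), and *MMP2* and *MMP15* overlapped, whereas the other neighbours were clearly apart. In shUBXN1 *PLAU* (73.3 to 74.3 TPM) lay within the range of *TIMP3* (66.7 to 77.7 TPM), *PLAT* (40.1 to 40.4 TPM) was above *MMP14* (35.8 to 38.9 TPM), and *MMP2* was last. The summed TPM of all 9 members was 865 and 846 in shCon and 1208 and 1239 in shUBXN1.

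Of the 20 other matrix metalloproteinase genes, 13 did not pass the filter, 4 of them with 0 counts in every library, and *MMP9*, which encodes gelatinase B, had at most 2 counts and is named after its values were seen. Of the 7 tested, 2 were called higher and 2 lower by edgeR, near the 28.0% and 28.2% of all genes tested. *MMP7*, which encodes matrilysin and was the most abundant of them, fell from 331 and 335 CPM to 152 and 161 CPM (log2 fold change -1.09; edgeR, adjusted p = 2.90e-08). The collagenase gene *MMP1* fell from 15.3 and 16.1 CPM to 3.23 and 2.22 CPM (log2 fold change -2.52; edgeR, adjusted p = 4.67e-08). *MMP25* and *MMP11* rose by 2.36 and 1.03 on the log2 scale (edgeR, adjusted p = 0.000890 and 0.0286) from 5 to 40 counts, and *MMP11* was not past the threshold in DESeq2, after GC correction, or without the first shCon or second shUBXN1 library. *MMP25* was at 0.79 in limma on log2(TPM + 1). Summed over the 20 genes, the level was 388 to 390 CPM in shCon and 192 to 206 CPM in shUBXN1.

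Of 8 other inhibitor genes, 5 passed the filter, with 2 called higher and 1 lower, where 28.0% and 28.2% of all genes tested were. *RECK*, which encodes a membrane-anchored inhibitor of metalloproteinases, rose from 9.08 and 8.73 CPM to 17.4 and 21.6 CPM (log2 fold change 1.13; edgeR, adjusted p = 6.73e-06), and *TIMP4* rose by 0.48 on the log2 scale (edgeR, adjusted p = 0.000389), and by 0.32 with GC correction and the replicate block. *TFPI2*, at -0.40, was past the threshold (edgeR, adjusted p = 0.0205) but not with total count scaling, in DESeq2, after GC correction, or without the first or the second shCon library.

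All 13 genes for activation of precursors and docking at the cell surface passed the filter. Of them, 6 were called higher and 4 lower, against 28.0% and 28.2% of all genes tested. *FURIN*, the convertase that removes the propeptide of MMP14, fell from 73.4 and 79.1 CPM to 29.8 and 29.9 CPM (log2 fold change -1.35, standard error 0.0801; edgeR, adjusted p = 7.23e-09). *CD44*, which encodes a hyaluronan receptor, and the convertase gene *PCSK7* fell by 0.42 and 0.31 on the log2 scale (edgeR, adjusted p = 0.000319 and 0.0121), and *PCSK7* did not pass with total count scaling, in limma, or without the second library of either group. *ITGB3*, which encodes the beta subunit of an integrin of vitronectin and fibrinogen, rose from 1.16 and 1.19 CPM to 11 and 9.78 CPM (log2 fold change 3.14; edgeR, adjusted p = 3.37e-08), and was at 1.73 in limma on log2(TPM + 1). *SPINT1* and *SPINT2*, which encode inhibitors of cell surface serine proteases, rose by 1.76 and 1.70 on the log2 scale (edgeR, adjusted p = 5.60e-10 and 3.39e-06).

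Among 15 other ADAM genes 10 were tested, with 5 called higher and 1 lower, against 28.0% and 28.2% of all genes tested. The median log2 fold change of these 10 was 0.44, and 0.10 after GC correction. *ADAM17*, which encodes the shedding enzyme of TNF, rose from 56.6 and 60.7 CPM to 101 and 109 CPM (log2 fold change 0.84; edgeR, adjusted p = 5.24e-07). *ADAM11* and *ADAM22*, which encode homologues without protease activity, rose by 3.41 and 1.68 (edgeR, adjusted p = 0.000110 and 0.00156) from 2 to 21 counts. Over the settings tried *ADAM11* ranged from 0.93 in limma on log2(TPM + 1) to 4.90 without the second shCon library, and *ADAM22* from 0.40 in limma to 1.79. *ADAM12* was at -0.26 (edgeR, adjusted p = 0.0329), a call lost with total count scaling, in DESeq2 and limma, and without the second shCon or first shUBXN1 library. Of 19 ADAMTS genes 10 were tested, with 5 called higher, where 28.0% of all genes tested were called higher and 28.2% lower. The median log2 fold change of these ADAMTS genes was 0.60, and 0.33 after GC correction. With p under 0.05 before adjustment 0 of them were lower, and DESeq2 and limma also called 0 lower. *ADAMTS12* rose from 36.1 and 35.8 CPM to 91.7 and 97.8 CPM (log2 fold change 1.40; edgeR, adjusted p = 3.74e-09), and *ADAMTS13*, which encodes the protease of von Willebrand factor, rose by 1.57 (edgeR, adjusted p = 0.000144), with 0.91 in limma. *ADAMTS10* was at 0.63 (edgeR, adjusted p = 0.000337) and did not pass after GC correction.

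**Figure D4:**
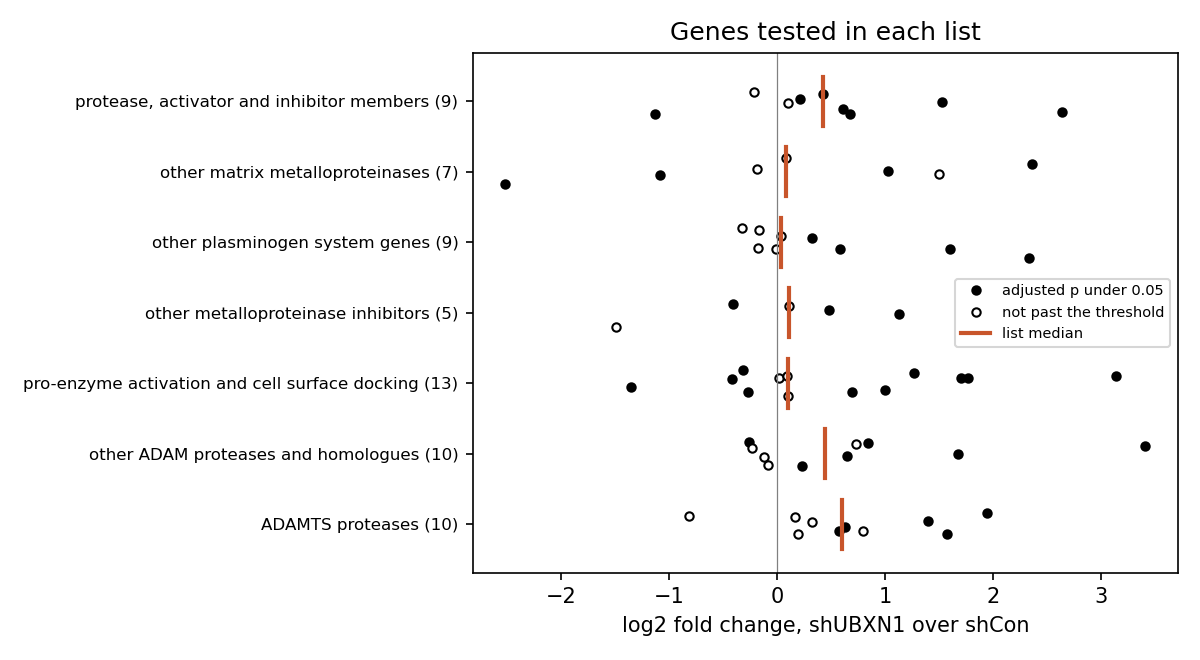
Log2 fold changes, shUBXN1 over shCon, of the genes tested in the members and the 6 pathway lists, without the marker lists (their number in parentheses), filled where the adjusted p was under 0.05, with list medians as vertical bars. *PLAT* is the rightmost of the members at 2.64, and the lowest value on the plot is *MMP1* at -2.52.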

How the data were processed

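RNA-seq libraries of MHCC97H cells (2 shCon, 2 shUBXN1) were grouped by the sample titles. Per the paper's methods, Hisat2 placed paired-end reads on GRCh38. The submitters' processing notes name HISAT2 2.0.4, StringTie 1.3.0 and GRCh37, and the library kit also differs between the methods and the labels. The counting tool, the annotation release and the use of strand are not given in the sources used here. The authors deposited expected counts per gene, estimated to 2 decimals and not normalized, with a gene length in bases. Of the gene IDs, 99.7% matched a symbol, and positions are those of GENCODE on GRCh38.

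Counts were rounded, filtered with filterByExpr, scaled by TMM and given to edgeR 4.0.16 (R 4.3.3), where glmQLFit and glmQLFTest made the test, with Benjamini-Hochberg adjustment over all genes tested. The methods name limma, which was run on log2(TPM + 1) as an alternative (limma 3.58.1), since the values are counts. Standard errors are the log2 fold change over the square root of F. Depth and the spread between libraries enter the intervals, on 2 residual degrees of freedom per gene with sharing across genes. Replicates differed beyond counting noise (chi-square over its degrees of freedom 3.65 for shCon and 7.77 for shUBXN1), so each library counts once. On simulated counts for this comparison, 184 of 200 changed genes among 16863 were recovered, with 4 other calls. Far fewer genes changed there than were called in the data (4727 higher and 4751 lower). The simulation therefore does not give the error rate of the calls reported here. GC correction removed each library's spline trend on the GC content of the longest transcript. Other alternatives were total count scaling, RLE factors, DESeq2 1.42.0, other count filters, a replicate block and leaving out each library.

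The members and gene lists were chosen with earlier results of these data known. Named genes are the members, *UBXN1*, in each list up to 3 of the largest rises and falls past an adjusted p of 0.05 above 1 CPM, and the 3 genes nearest to each of the 2 members that moved most. Others are said to be named after their values were seen. *KRT8*, *KRT18* and the other markers belong to lists of hepatocyte, fibroblast, endothelial and leukocyte genes. Of the hepatocyte list, 2 of 11 genes were called higher and 6 lower, where 28.0% and 28.2% of all genes tested were. Some genes counted in the lists are not reported by name here.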

Additional observations from a re-analysis of the deposited data

How the results depend on the processing

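Over 13 alternatives the log2 fold changes of *PLAT* (2.52 to 2.72), *PLAU* (1.35 to 1.61), *TIMP2* (0.50 to 0.76), *MMP14* (0.33 to 0.69), *MMP2* (-1.34 to -0.81) and *UBXN1* (-2.21 to -1.93) kept their direction and their side of the threshold. *TIMP1* was at -0.046 after GC correction and -0.048 with GC correction and the replicate block (edgeR, adjusted p = 0.680 and 0.652), where its call was lost. With each library left out in turn, *TIMP1* ranged from 0.14 to 0.27, *TIMP3* from -0.085 to 0.25, *MMP15* from -0.55 to 0.051 and *ADAM9* from 0.34 to 0.48. After GC correction, alone or with the block, 5 members were called higher at the adjusted p and 2 lower, where *MMP15* joined *MMP2*. Calls over all genes tested moved too. GC correction alone called 3871 genes higher and 5510 lower, against 4727 and 4751 without it. At a fold change of 2, limma on log2(TPM + 1) called 0 members lower, 1023 genes higher and 520 lower, against 1997 and 1027 in edgeR, and a minimum of 10 counts in every library left 1321 genes higher. Replicate numbers shared by the groups were not paired, since deviations of same-numbered libraries correlated with r = 0.029 across genes. The replicate block changed no member's call (*PLAT* 2.64, *TIMP1* 0.21) and gave 5000 genes higher and 5023 lower at the adjusted p, against 4727 and 4751. The cause of these differences was not tested. Counts were low for *MMP2* and *MMP15*, with 86 to 234 per library, and for *PLAT* in shCon, with 214 and 203.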
